A study of Mus musculus with 53 samples.

Results

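The 31 genes described here encode transcription factors of the developing nervous system, and the question is which of them carried SOX2, GATA6, H3K27ac or H3K4me1 peaks in cells that are not neural. They were listed by name, out of 21938 protein-coding genes on the mouse autosomes, X and Y. They comprise the SOX and ZIC factors Sox1, Sox11, Sox21, Zic1, Zic2, Zic4 and Zic5 and the paired-box factors Pax3, Pax6 and Pax7. The basic helix-loop-helix (bHLH) factors are Neurog1, Neurog2, Neurod1, Olig1, Olig2 and Hes5, and the homeodomain factors of progenitor domains are Nkx2-2, Nkx6-1, Dbx1 and Irx3. The LIM homeodomain factors are Lhx2, Lhx5, Lmx1a and Lmx1b, and the forebrain and midbrain homeodomain factors are Six3, Six6, Emx2, En1 and En2. Meis1, a TALE homeodomain factor, and Pou3f2, a POU factor, complete the list. A peak was assigned to a gene when it overlapped the gene body or the 20 kb on either side by at least 1 bp.

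The series profiled chromatin by CUT&RUN, in which an antibody directs a nuclease to cut out the DNA around its target. All cells came from SGGC, a double reporter line made in E14JU mouse embryonic stem cells (ESC), in which endogenous SOX2 is fused to GFP and endogenous GATA6 to mCherry, with B9 and B12 as its clones here. Of 53 samples, 35 had a peak list, and 33 of these could be assigned to a population. For 2 histone libraries of experiment B, 1 of each mark, the labels name more than 1 sorted population, so these are given apart. The NACL SOX2 library of clone B12 takes its medium from its title, since its source name gives none. The 18 IgG samples had no list. The populations were naive ESC in 2iLIF (a MEK inhibitor, CHIR99021 and LIF) or in NACL (Activin A, CHIR99021 and LIF), cells from KOSR medium sorted by FACS as SOX2-GFP single positive (SOX2+) or double positive for SOX2 and GATA6 (DP), and naive extra-embryonic endoderm (nEnd). All 17 assigned or unassigned KOSR libraries came from clone B12, and both nEnd H3K4me1 libraries from clone B9. The labels name clones or experiments A, A1 and B but not separate cultures, so the p-values below measure the spread between libraries, which may be technical.

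Neural transcription factors turn on in order as epiblast becomes neural plate, and SOX2, which maintains pluripotent cells, is later also a main factor of neural progenitors, where it works with other SOX and POU partners at distal enhancers. H3K4me1 marks enhancers that are open or poised, and H3K27ac marks active enhancers and promoters. GATA6 drives primitive endoderm (PrE), the extra-embryonic lineage that nEnd represents. In ESC the promoters of many developmental regulators are rich in CpG.

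Libraries differed widely in the number of peaks, which limits what each can show: 1378 to 29623 for SOX2, 1391 to 32510 for GATA6, 13514 to 401853 for H3K27ac and 18627 to 130749 for H3K4me1. Each list was therefore held to its strongest peaks by max signal, as many as the shortest list of that antibody (1378, 1391, 13514 and 18627), and these are called kept peaks. A gene's score in a library was 100 if its window held the strongest peak of the library, fell in equal steps with rank, and was 0 with no kept peak. A kept H3K27ac peak lay at 6 to 8 of 8 pluripotency marker genes in every population, at 11 of 12 PrE genes in nEnd against 2 to 6 in the others, and at 0 to 2 of 6 genes of neurons and neural progenitors. Where a peak stood lower in a list, fewer cells with it and less signal per cell cannot be told apart.

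Few of the 31 genes carried a strong SOX2 peak, in any population. A kept SOX2 peak in at least 2 libraries was present at 1 gene in 2iLIF, against 3.24% of the 19419 other protein-coding genes of similar length (1449 to 159505 bp). These share the members' range of length but have a median of 17140 bp against 6858 bp, and genes within 25% of each member's length, drawn as gray bars in the plot of shares, gave lower shares in every case (2.77% here). The count was 1 in NACL against 2.92%, 1 in SOX2+ against 4.46% and 1 in DP against 4.44%. The gene was Pax3 in 2iLIF, NACL and SOX2+, and Meis1 in DP. With 31 members 1 gene is 3.23%, so all these counts lay near the background of similar genes. No SOX2 peak of any strength was found at 16 members, among them Sox1, Olig1, Olig2, Nkx2-2, Pax7, Six3 and Zic1, 12 had only peaks below the kept number, and Pax3, Lmx1b and Meis1 had a kept peak.

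**Figure D1:**
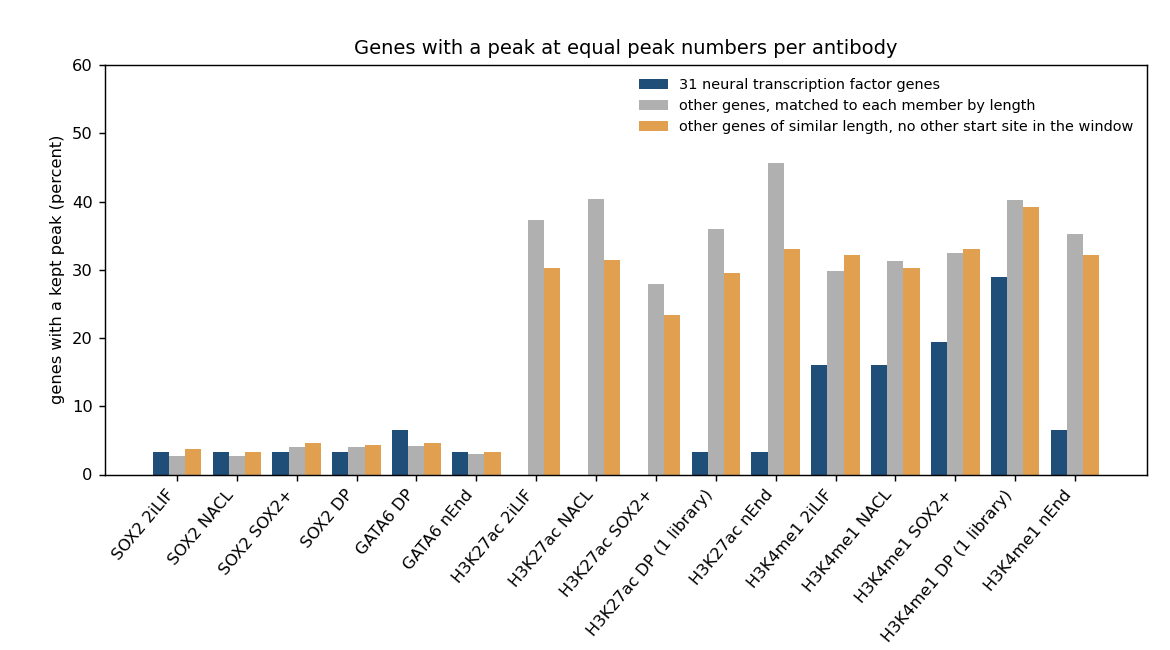
Percent of genes with a kept peak (y axis) for each antibody and population (x axis) in at least 2 libraries, or in the 1 DP histone library. Dark bars are the 31 neural transcription factor genes, gray bars other genes averaged over those within 25% of each member's length, and orange bars other genes of similar length whose window holds no other protein-coding start site. Dark SOX2 and GATA6 bars reach at most 6.45%, and the dark H3K27ac bars stand at 0 in 2iLIF, NACL and SOX2+ beside gray bars of 27.9% to 40.3%.

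The SOX2 sequences that carry these values are shown as 200 bases of the plus strand of GRCm38 centered on the position of highest signal, with the SOX-type strings CATTGT and CTTTGT in capitals on either strand (ACAATG and ACAAAG when reversed). Pax3 and Meis1 are the members with kept peaks in at least 2 libraries of a population, and Sox11 and Neurod1 were added after their values were seen, as members with SOX2 in NACL and SOX2+ but not in 2iLIF.
Pax3 SOX2 peak, chr1:78119990-78120189: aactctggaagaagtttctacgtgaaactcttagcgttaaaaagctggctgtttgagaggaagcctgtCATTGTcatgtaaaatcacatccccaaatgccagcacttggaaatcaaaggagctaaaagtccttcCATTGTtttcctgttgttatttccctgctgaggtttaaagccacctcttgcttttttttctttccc
Meis1 SOX2 peak, chr11:18957499-18957698: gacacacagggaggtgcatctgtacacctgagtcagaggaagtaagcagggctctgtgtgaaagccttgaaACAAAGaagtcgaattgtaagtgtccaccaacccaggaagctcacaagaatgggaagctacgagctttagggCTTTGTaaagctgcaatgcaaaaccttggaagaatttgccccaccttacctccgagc
Sox11 SOX2 peak, chr12:27320817-27321016: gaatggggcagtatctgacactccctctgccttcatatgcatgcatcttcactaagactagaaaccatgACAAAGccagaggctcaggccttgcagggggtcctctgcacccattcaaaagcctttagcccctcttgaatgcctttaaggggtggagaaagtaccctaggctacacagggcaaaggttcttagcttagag
Neurod1 SOX2 peak, chr2:79444585-79444784: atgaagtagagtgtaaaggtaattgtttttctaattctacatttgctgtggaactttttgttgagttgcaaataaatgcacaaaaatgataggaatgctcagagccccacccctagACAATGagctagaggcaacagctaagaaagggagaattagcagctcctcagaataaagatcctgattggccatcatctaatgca

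All 4 sequences hold at least 1 of these strings. In kept SOX2 peaks, 3 of 4 member sites had CATTGT or CTTTGT, beside 75.0% of all 3563 sites of that kind, and over all peaks 25 of 34 member sites had one, beside 63.9% of 39917. The octamer string ATGCAAAT, searched on both strands, was in 0 of 4 member sites and in 5.75% of all kept sites.

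Pax3, a regulator of dorsal neural tube and neural crest, had the SOX2 peak with the highest score of the list. It lay 77044 bp from the start site in an intron and was present in 9 of 10 libraries. The scores were 84.5 and 51.5 in 2iLIF, 76.9 and 21 in NACL, 58.9, 29.8 and 17.3 in SOX2+, and 38.6, 0 and 0 in DP. The populations overlapped, and only the DP library of experiment A kept the peak. Within each of experiments A, A1 and B the DP score lay below the SOX2+ score. The difference of DP minus SOX2+ was -22.4 ± 18.6 (SE, adjusted p = 0.485, limma over 1912 genes, of which 15.1% were called in either direction). SOX2+ minus the naive populations gave -23.1 ± 17.4 (adjusted p = 0.41, with 17.1% of genes called). Only 2 members, Pax3 and Meis1, entered these fits, and limma called 0 of them, also 0 at an unadjusted p under 0.05. Meis1 scored 0 in every SOX2+ and naive library, so only Pax3 could have been called in SOX2+ minus naive. With the experiment as a block, since SOX2+ and DP were sorted from the same experiments, the 6 libraries gave 165 genes higher and 206 lower in DP, against 106 and 113 without it, and 0 members either way. When peaks were ranked by total signal in place of max signal, no member had a kept SOX2 peak in at least 2 libraries of NACL, SOX2+ or DP. H3K4me1 at this Pax3 site was kept in the DP library, was weaker in both SOX2+ libraries (percentiles 60.3 and 61.5 of their lists) and was absent from the 2iLIF, NACL and nEnd libraries.

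Meis1, a cofactor of HOX proteins that also acts outside the nervous system, was the member with a kept SOX2 peak in at least 2 DP libraries. Its SOX2 score was 75.9, 2.69 and 0 in DP and 0 in the 7 other libraries. DP A stood far above the rest, and the groups overlapped through DP B, which has the shortest list. The difference of DP minus SOX2+ was 26.2 ± 17.3 (adjusted p = 0.359, limma). Meis1 entered this fit through DP alone, so its direction was given once it entered. At 4859 peaks a list, which leaves DP B out and was chosen after seeing the data, Meis1 was called higher in DP by 74.5 ± 14.2 (adjusted p = 0.00871, limma over 5214 genes, of which 12.9% were called higher), and with the experiment as a block in the 5 SOX2+ and DP libraries the difference was 70.4 ± 18.7 (adjusted p = 0.00171, limma). Without DP A or DP A1 no member had a kept SOX2 peak in 2 DP libraries. Below the kept number, the peak at 61386 bp was also found in both NACL libraries and in SOX2+ A and A1, while both 2iLIF libraries and both NACL libraries had another at 105553 bp that no KOSR library shared.

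Lmx1b, a LIM homeodomain factor of midbrain and hindbrain neurons, reached the kept number in SOX2+ B alone, with a score of 24.5. The same peak was nevertheless present in 7 of 10 libraries, all those of 2iLIF, NACL and SOX2+. In full lists its strongest peak stood at percentiles 77.4 and 19.1 for 2iLIF, at 69.2 and 72.5 for NACL and at 82.5, 87.3 and 90.1 for SOX2+, and it was not found in DP. At 4859 peaks a list, Lmx1b was called lower in DP than in SOX2+ by limma (-54.7 ± 15, adjusted p = 0.0382) and higher in SOX2+ than in the naive populations (44.3 ± 12.6, adjusted p = 0.0468), where 9.99% and 10.4% of genes were called in those directions. With the experiment as a block the first difference was -42.8 ± 17.6 (adjusted p = 0.0431, limma). Here and below, percentiles place a gene's strongest peak in the library's own full list, so they compare genes within a library better than libraries of unequal length. A second intronic site at 59698 bp was present in the 5 NACL and SOX2+ libraries only, and H3K4me1 was kept there in both SOX2+ libraries, in NACL B12 and in the unassigned library.

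**Figure D2:**
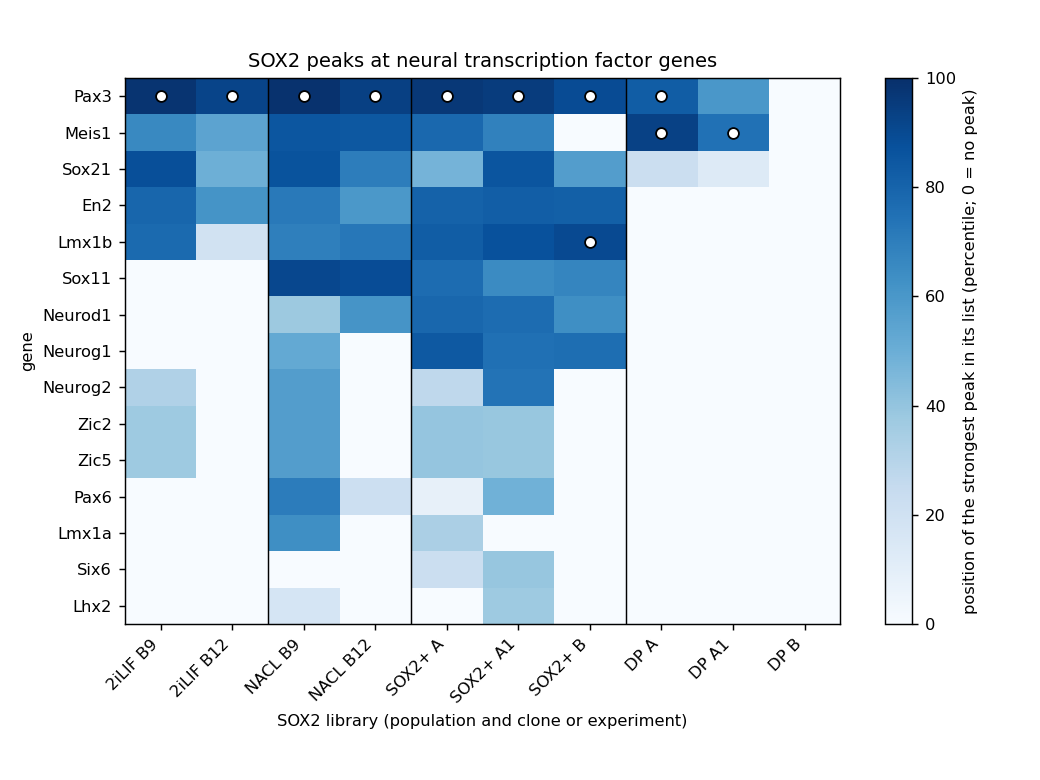
Position of the strongest SOX2 peak of each gene (rows) in the full list of each library (columns), as a percentile from 0 (no peak, white) to 100 (dark blue), for the 15 members with a SOX2 peak anywhere. White dots mark kept peaks. Pax3 is dark in 2iLIF, NACL and SOX2+, Sox11, Neurod1 and Neurog1 are white in 2iLIF and filled in SOX2+, and DP B has no peak at any member.

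Sox11, Neurod1, Neurog1 and Pax6 had SOX2 peaks in all SOX2+ libraries and in neither 2iLIF library. They are 4 of 31 members, and 4.89% of similar genes had that pattern. These genes were named after their values were seen. Sox11, a factor of newly formed neurons, stood at percentiles 90.8 and 88.8 in NACL, 76.7, 65.1 and 66.8 in SOX2+, and had no peak in 2iLIF or DP. Neurod1, a bHLH factor of neuronal differentiation, stood at 37.5 and 61.1 in NACL and 78.6, 76.6 and 63.3 in SOX2+, and was likewise without a peak in 2iLIF and DP. Its window also holds the start site of Cerkl. Neurog1, a proneural bHLH factor of sensory lineages, stood at 84.3, 75.3 and 76.1 in SOX2+ and at 52.2 in NACL B9, and had no peak in the other libraries. Lists ran from 10513 to 20609 peaks in SOX2+ and from 8203 to 13177 in 2iLIF, and the pattern was therefore read at 8203 peaks, the length of the shortest 2iLIF list. At that number Sox11 was present in 3 of 3 SOX2+ and both NACL libraries, Neurod1 in 3 of 3 SOX2+ libraries and NACL B12, and Neurog1 in 3 of 3 SOX2+ libraries, and none of them in 2iLIF. These were the 3 members with the pattern at that number, where 2.86% of similar genes had it.

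Counted over all members at 8203 peaks, 7, 9 and 7 genes had a SOX2 peak in SOX2+, 5 and 5 in 2iLIF, and 4 and 7 in NACL, while 20.1% to 23.2% of similar genes did. At 4859 peaks, which leaves out only DP B, the counts were 7, 5 and 7 in SOX2+, 5 and 4 in 2iLIF, 4 in each NACL library and 3 in each of DP A and DP A1, beside 13.2% to 14.8%. As shares of 31 these ran from 9.68% in DP to 22.6% in SOX2+ A and B, within a few genes of the similar genes in every library. No p is given for these counts, since the list was chosen with results of these data known.

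En2, a homeodomain factor of the midbrain and hindbrain boundary, and Sox21, a repressor of SOX2 family targets in progenitors, had SOX2 peaks in all 7 libraries outside DP. En2 stood at percentiles 79.2 and 61.5 for 2iLIF, at 71.7 and 59.6 for NACL and at 80.5, 82.2 and 81.6 for SOX2+, through an intronic site 2406 bp from its start. At 4859 peaks En2 was called lower in DP than in SOX2+ (-39 ± 11.1, adjusted p = 0.0429, limma), but in the 5 SOX2+ and DP libraries it was not, with the block (adjusted p = 0.136) or without it (0.0862). Sox21 stood at 87.9 and 49.4 in 2iLIF, 86.5 and 70.1 in NACL, 47.5, 85.6 and 57.2 in SOX2+, and 22.3 and 12.9 in DP A and A1. Its sites lay at 6664 bp and, upstream, at -16565 bp from the start site, in 8 and 7 libraries. Pax6, a regulator of eye and forebrain progenitors, had an intronic site at 22503 bp in the 5 NACL and SOX2+ libraries, with percentiles from 0.162 to 70.5. Neurog2, Zic2, Zic5, Lmx1a, Six6 and Lhx2 had peaks in 2 to 4 libraries. All sites of Zic5 are shared with Zic2 because their windows overlap, and Zic2 had a further site at 20213 bp in NACL B9 alone.

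The 15 members with SOX2 held 34 distinct sites, of which 15 were intronic, 8 upstream and 10 downstream. None lay within 1 kb of a member's start site, the nearest was 1577 bp away and the median distance was 13.9 kb. At the start site itself (1 kb on either side) no member had a kept SOX2 or GATA6 peak in at least 2 libraries of any population, nor did more than 0.294% of similar genes. With all peaks no member had SOX2 at the start site in any library, where 0.257% to 9.39% of similar genes did, so few members could have had one.

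GATA6 showed a different pair of members. A kept GATA6 peak in at least 2 libraries was present at 2 members in DP, Pax7 and Meis1, against 4.72% of similar genes, and at 1 in nEnd, Meis1, against 3.51%. No GATA6 peak of any strength was found at 19 members, including Pax3, Pax6, Sox11, Sox1 and Nkx2-2. With all peaks 5 members had GATA6 in at least 2 libraries of DP, against 11.8% of similar genes, and 5 (16.1%) in nEnd, against 46.1%, or 39.3% of those with no other start site in the window. The sequences of both strongest sites follow, with the GATA-type strings AGATAA and TGATAA and the SOX-type strings above in capitals on either strand.
Meis1 GATA6 peak, chr11:18957216-18957415: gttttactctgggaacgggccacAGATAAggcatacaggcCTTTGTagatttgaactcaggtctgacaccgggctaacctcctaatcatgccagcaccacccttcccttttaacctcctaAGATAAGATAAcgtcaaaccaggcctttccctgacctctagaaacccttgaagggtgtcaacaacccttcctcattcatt
Pax7 GATA6 peak, chr4:139769167-139769366: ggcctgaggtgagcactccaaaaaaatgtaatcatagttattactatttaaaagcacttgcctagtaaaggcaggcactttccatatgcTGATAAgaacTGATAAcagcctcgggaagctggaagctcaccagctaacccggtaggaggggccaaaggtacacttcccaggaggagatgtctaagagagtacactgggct

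The Meis1 window holds AGATAA 3 times. The Pax7 window holds TGATAA 2 times and none of the other strings, and TGATAA was added to the search after this sequence was seen. Over kept GATA6 peaks, AGATAA was in 5 of 6 member sites and in 76.1% of all 3411 sites, and over all peaks in 22 of 34 and in 55.5%. Either GATA-type string was in 6 of 6 kept member sites beside 89.4%, and over all peaks in 29 of 34 beside 72.3%.

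Pax7, a regulator of dorsal neural tube and of muscle precursors, had GATA6 in DP and not in nEnd. Its GATA6 scores were 85.6, 69.1 and 39.2 in DP and 0 and 0 in nEnd. The groups did not overlap, and in nEnd no peak of any strength lay at Pax7. The difference of nEnd minus DP was -64.6 ± 15.5 (adjusted p = 0.0343, limma over 1679 genes, of which 20.8% were called lower in nEnd). Pax7 entered the fit through DP alone, so its direction was given once it entered. The call was lost without DP A (adjusted p = 0.0597), DP A1 (0.0896) or nEnd B9 (0.077), and with total signal (0.15) or log2 rank (0.0921) in place of rank by max signal, all by limma. The peak 64261 bp into the gene was present in 3 of 3 DP libraries at percentiles 39.2 to 97.6, and a second one at 17624 bp in 2 of them. H3K4me1 was kept at the first site in all 2iLIF and NACL libraries, was present but not kept in SOX2+ and DP, and was absent in nEnd.

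Meis1 had GATA6 in all libraries. Its scores were 93.2, 93.2 and 97.1 in DP and 49.4 and 80.9 in nEnd. The scores of nEnd lay below those of DP without overlap, and the difference of -29.4 ± 10.4 missed the threshold (adjusted p = 0.0909, limma). It passed with total signal (adjusted p = 0.00631, limma) or log2 rank (0.0363). It also passed by limma without nEnd B9 (adjusted p = 0.00709) or nEnd B12 (4.64e-09), but the spread then came from the 3 DP libraries alone, so these values say nothing of the spread in nEnd. In their full lists, which are longer in nEnd, the same gene stood at 97.1 and 99.2 in nEnd and 97.1 to 98.9 in DP, and the difference was 0.321 (adjusted p = 0.906, limma). The intronic site 61669 bp from the start was kept in 5 of 5 libraries, next to the SOX2 site at 61386 bp, and a site upstream, at -4325 bp, was kept in the 3 DP libraries. H3K27ac was kept at the intronic site in the DP library and in both nEnd libraries, and H3K4me1 in both SOX2+, the DP and both nEnd libraries.

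**Figure D3:**
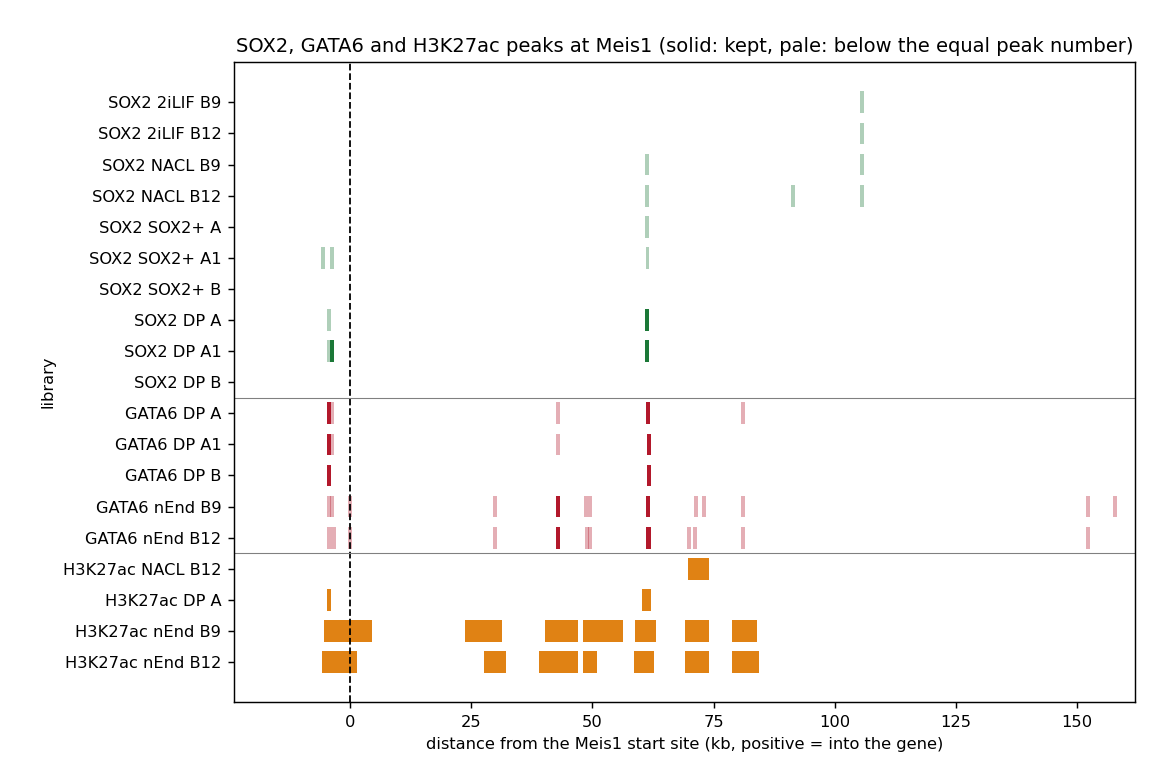
Peaks at Meis1 by library (rows) against distance from the start site in kb (x axis), drawn from start to end of each peak with at least 0.8 kb of width so that narrow ones can be seen. Green is SOX2, red GATA6 and orange H3K27ac (kept peaks only, in the 4 libraries that have any), solid bars are kept and pale bars are not. SOX2 in DP A and A1 and GATA6 in all 5 libraries meet near 61 kb, where H3K27ac was also kept in DP and nEnd.

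Of the other members with GATA6, En1, a midbrain homeodomain factor, was kept in DP B alone with a score of 10.4, and the rest had peaks below the kept number. Six3, a forebrain factor, had a peak at 11557 bp in 2 DP libraries and none in nEnd, whereas Sox21 and Zic2 had peaks in both nEnd libraries, at 15403 and 18618 bp, and none in DP. In the nEnd lists Zic2 stood at percentiles 78.8 and 85.5 and Sox21 at 77.1 and 54.1. The peaks of Hes5, a Notch target, at percentiles 79.0 and 83.8 in nEnd, lay in a window that also holds the start site of Pank4. These members were named after their values were seen.

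H3K27ac was nearly absent from the list at equal peak numbers. A kept H3K27ac peak in at least 2 libraries was present at 0 of 31 members in 2iLIF, 0 in NACL and 0 in SOX2+, against 43.4%, 46.3% and 32.8% of similar genes. The count was 1 in the DP library against 41.4%, and 1 in nEnd against 50.9%, Meis1 in both cases. The windows differ in their neighbors: 24 of 31 members (77.4%) have no other protein-coding start site in their window, but only 36.3% of similar genes. Among similar genes without such a neighbor the shares were 30.3%, 31.5%, 23.3%, 29.5% and 33.0%, while 0, 0, 0, 1 and 1 of those 24 members had a kept peak. The members' promoters, matched for 26 of 31 in RefSeq (GRCm38), had a median observed to expected CpG ratio of 0.803, against 0.599 for similar genes. The part of neighbors and of CpG in the H3K27ac counts was not tested.

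Below the kept number, H3K27ac peaks were common in the naive lists, which hold 210904 to 401853 peaks. In 2iLIF 23 members had a peak in both libraries and in NACL 19, against 91.5% and 89.3% of similar genes. In SOX2+, with 13514 and 14722 peaks, the count was 0 against 33.4%. The members' peaks were weak where present: the median percentile of a member's strongest peak was 51.2 and 51.3 in 2iLIF, where similar genes had 95.1 and 96.6, and 76.2 and 65.4 in NACL, where they had 95.2 and 95.2. Six3 was the 1 member with no H3K27ac peak in any library. Such comparisons across populations rest on lists of very unequal length.

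Meis1 was the exception among the members for H3K27ac. Its scores were 0 and 0 in 2iLIF, 0 and 17.2 in NACL, 0 and 0 in SOX2+, 73.5 in DP and 80.9 and 59.4 in nEnd. Both nEnd libraries lay above all naive ones without overlap. The difference of nEnd minus 2iLIF and NACL was 65.9 ± 9.3 (adjusted p = 0.00303, limma over 13860 genes, of which 19% were called higher), and Meis1 was the 1 member tested. It passed the filter only with the nEnd libraries, where it is high, and in the fit with no filter the adjusted p was 0.00511 (limma). With all peaks, where the naive lists are far longer, the difference was -5.28 (adjusted p = 0.487, limma). Peaks in nEnd were broader than elsewhere, with a median width of 4386 and 5453 bp against 1008 to 1452 bp in the naive libraries, and the part of width in the result was not tested. In SOX2+ minus naive, where 7.26% of genes were called, limma called 0 members, also 0 at an unadjusted p under 0.05, and Meis1 differed by -4.3 ± 9.3 (adjusted p = 0.874). Sox21 had a kept peak in nEnd B9 (score 82.1) and none in nEnd B12. The DP value has no replicate.

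**Figure D4:**
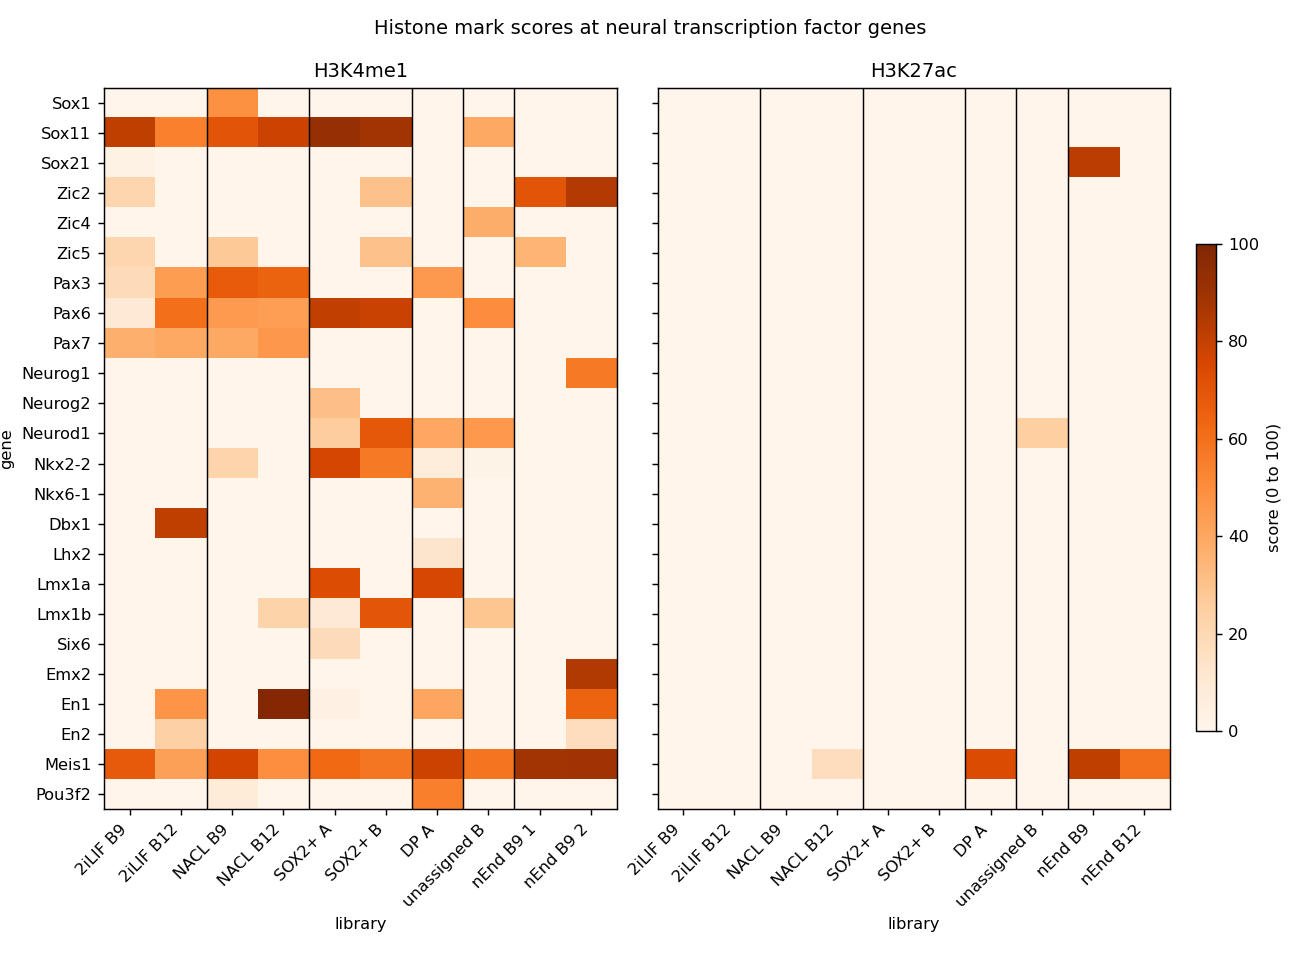
Scores from 0 to 100 (color) of H3K4me1 (left) and H3K27ac (right) by gene (rows) and library (columns), for the 24 members with a kept peak of either mark in any library shown, the unassigned library of experiment B included. H3K4me1 is spread over many members and differs between populations, whereas H3K27ac is almost empty except for Meis1 in DP and nEnd.

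H3K4me1 was carried by more members, though at equal peak numbers by a smaller share of them than of similar genes. A kept H3K4me1 peak in at least 2 libraries was present at 5 members in 2iLIF against 34.9%, at 5 in NACL against 36.7%, and at 6 in SOX2+ against 37.2%. In the DP library the count was 9 against 45.5%, and in nEnd it was 2 against 40.3%. Among similar genes with no other start site in the window the shares were 32.2%, 30.3%, 33.1%, 39.2% and 32.1%. Of the 24 such members, 5, 5, 5, 8 and 1 had a kept peak, in the same order of populations. The members were Pax3, Pax6, Pax7, Meis1 and Sox11 in both naive populations, Lmx1b, Neurod1, Pax6, Nkx2-2, Meis1 and Sox11 in SOX2+, and Meis1 and Zic2 in nEnd. In DP they were Pax3, En1, Lmx1a, Lhx2, Neurod1, Nkx2-2, Pou3f2, Nkx6-1 and Meis1. Of the members' 101 kept peaks 59 were intronic and 2 lay within 1 kb of the start site, and the median distance was 22 kb. A kept H3K4me1 peak at the start site was uncommon in general, at 4.37% to 13.2% of similar genes in each library. In assigned libraries of the same population both marks were kept at the same member only at Meis1, in NACL, DP and nEnd. In the unassigned libraries of experiment B both were kept at Neurod1. With all peaks, 27 members (87.1%) had H3K4me1 in both SOX2+ libraries and 31 (100%) in the DP library, above the 75.1% and 86.7% of similar genes. In nEnd 6 (19.4%) had it, below the 44.3% of similar genes. DP has the longest H3K4me1 list (130749 peaks) and nEnd the shortest (18627).

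Of the 12 members that entered the H3K4me1 fit, 1 was called higher and 3 lower in nEnd than in the naive populations, where 17% and 12.0% of 14155 genes were called. Sox11 scored 80.9 and 54.1 in 2iLIF, 69.9 and 78.0 in NACL, 92.5 and 88.6 in SOX2+, 0 in DP and 0 and 0 in nEnd. Every naive and SOX2+ library carried it and no nEnd library did, so the groups did not overlap. Sox11 thus entered the fit without nEnd, and its difference could not be positive. The difference of nEnd minus naive was -70.7 ± 10.2 (adjusted p = 0.00411, limma), and it stayed called when each of the 6 nEnd and naive libraries was left out. The peak lay about 22 kb downstream of Sox11, over the SOX2 site at 21657 bp, and reached percentiles 97.3 and 97.6 in SOX2+. This was the highest H3K4me1 percentile among the 4 SOX2 sites printed above. The DP library also had a peak on that site, below the kept number at percentile 77.4, and neither nEnd library had one. With 5 kb on each side of the gene, which leaves this site out, Sox11 was not called (adjusted p = 0.39, limma), and on log2 rank it just missed (adjusted p = 0.0559).

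Pax3 and Pax7 had H3K4me1 in the naive populations. Pax3 scored 18.7 and 44.0 in 2iLIF, 67.3 and 64.6 in NACL, 0 and 0 in SOX2+, 45.3 in DP and 0 and 0 in nEnd. Pax7 scored 36.9 and 39.6 in 2iLIF, 39.4 and 46.0 in NACL, and 0 in SOX2+, DP and nEnd. The naive libraries all lay above those of SOX2+ and nEnd. Against nEnd the differences were -48.7 ± 10 for Pax3 (adjusted p = 0.014) and -40.5 ± 7.6 for Pax7 (adjusted p = 0.0103, both limma). Both genes passed the filter through the naive libraries alone, so the direction was given once they entered, and both calls were lost without either nEnd library (adjusted p 0.113 to 0.118, limma), that of Pax7 also on log2 rank (0.0557). The naive Pax3 peaks lay near 29 to 40 kb in the gene, apart from the SOX2 site at 77044 bp, and the DP peak lay on that site.

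Zic2, a zinc finger factor of dorsal midline and forebrain, was the member higher in nEnd. It scored 21.2 and 0 in 2iLIF, 0 and 0 in NACL, 0 and 29.8 in SOX2+, 0 in DP and 69.7 and 84.2 in nEnd. Both nEnd libraries lay above all others, at a difference from naive of 71.7 ± 12.5 (adjusted p = 0.00836, limma). The call was lost without the second nEnd library (adjusted p = 0.0583), with total signal (0.0547) and with all peaks (0.076), all by limma. The nEnd peaks lay 17433 and 17824 bp downstream of the start, near the GATA6 peak of nEnd at 18618 bp. With 5 kb flanks, which leave these peaks out, no member was called higher in nEnd. The window of Zic2 also holds the start sites of Zic5 and Gm10837.

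For SOX2+ minus naive, 1 of the 12 members was called higher and 2 lower, where 2.55% and 2.37% of genes were called. Nkx2-2, which patterns ventral neural progenitors and also acts in pancreas, scored 0 and 0 in 2iLIF, 22.5 and 0 in NACL, 76.0 and 56.4 in SOX2+, 6.72 in DP and 0 and 0 in nEnd. Its SOX2+ libraries lay above all naive ones, by 60.6 ± 10.2 (adjusted p = 0.0319, limma), but it passed the filter only with the SOX2+ libraries, where it is high. Pax3 and Pax7 scored lower in SOX2+ by the same amounts as in nEnd, since neither had a kept peak in either group (adjusted p = 0.0489 and 0.0387, limma). With all peaks, both genes had H3K4me1 in both SOX2+ libraries but not in both nEnd libraries. Leaving out any of the 6 SOX2+ and naive libraries ended these calls, save that of Nkx2-2 without NACL B9, and so did all peaks, log2 rank and the fit with no filter (adjusted p 0.0678 to 0.715, limma). With total signal only Pax3 of the 3 was called (adjusted p = 0.0174, limma). Neurod1 scored 0 in all 4 naive libraries, 25.9 and 68.7 in SOX2+, 40.2 in DP and 0 and 0 in nEnd, which gave 47.3 ± 12.1 without passing (adjusted p = 0.0831, limma). It entered the fit through SOX2+ alone, which fixed the direction, and with total signal it was called higher (adjusted p = 0.00979, limma). Its H3K4me1 peaks in SOX2+ and DP lay on the SOX2 site at 12066 bp. Both 2iLIF libraries also had a peak there below the kept number, at percentiles 8.35 and 57.0. Pax6 scored 9.54 and 60.4 in 2iLIF, 44.7 and 43.7 in NACL, 80.8 and 78.6 in SOX2+, and 0 in DP and nEnd. Its SOX2+ libraries lay above the naive ones without passing (40.1 ± 15.2, adjusted p = 0.197, limma).

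**Figure D5:**
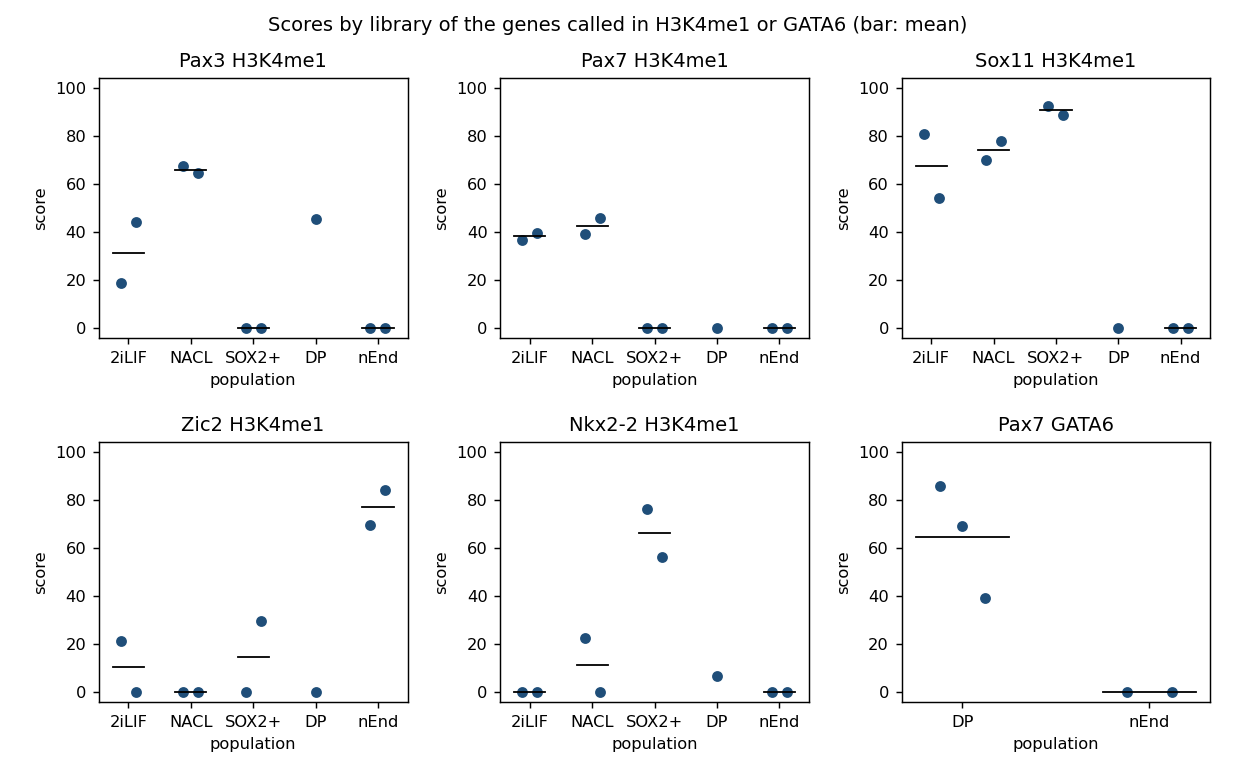
Scores (y axis, 0 to 100) by library (points) and population (x axis) of the genes called in H3K4me1, and of Pax7 in GATA6, with bars for the mean where a population has more than 1 library. A score of 0 means no kept peak. Sox11 lies between 54.1 and 92.5 in the naive and SOX2+ libraries and at 0 in DP and nEnd. Zic2 is highest in nEnd, and Nkx2-2 in SOX2+.

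Meis1 carried H3K4me1 in all libraries, with scores of 67.7 and 42.6 in 2iLIF, 76.9 and 49.4 in NACL, 62.4 and 57.6 in SOX2+, 77.9 in DP and 88.9 and 89.3 in nEnd. The nEnd libraries were highest, but the difference from naive of 30 ± 11.2 missed the threshold (adjusted p = 0.0962, limma). Some members differed widely between libraries of 1 population: Dbx1 scored 81.1 in 2iLIF B12 and 0 in 2iLIF B9, En1 98.1 in NACL B12 and 0 in NACL B9, and Emx2 84.5 in the second nEnd library and 0 in the first. These gaps are as large as those of the called genes between populations. En1 was kept in 4 further libraries, with scores from 3.83 to 64.1. Olig1, Olig2, Hes5, Lhx5, Irx3, Six3 and Zic1 had no kept H3K4me1 peak in any library.

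A further 39 neural transcription factor genes were counted in the same way. Kept SOX2 peaks in at least 2 libraries were present at 1 in 2iLIF, 1 in NACL, 2 in SOX2+ and 1 in DP, kept GATA6 peaks at 3 in DP and 1 in nEnd, and kept H3K4me1 peaks at 10, 8, 13, 16 and 7 in 2iLIF, NACL, SOX2+, DP and nEnd. H3K27ac was kept at 5, 4, 5, 8 and 4 of them, among them Sox2 and Hes1, which are used in pluripotent cells. By limma, nEnd minus naive called 3 higher and 2 lower for H3K27ac (10 tested) and 2 higher and 3 lower for H3K4me1 (24 tested), and the 3 H3K27ac calls fell to 0 without either nEnd library. SOX2+ minus naive called 0 for both marks by limma (2 for H3K27ac and 8 for H3K4me1 at an unadjusted p under 0.05), and for SOX2 1 higher of 3 tested, but 0 with total signal. DP minus SOX2+ called 2 of 3 lower for SOX2, Sox2 itself and Gsx2, where leaving out DP A, DP A1, SOX2+ A or SOX2+ B left 1 and total signal 0. For GATA6 nEnd minus DP called 2 of 3 lower, and 1 without DP A or DP A1. The shares of all genes called in these comparisons are those given above for the members, and 1973 of 13860 genes were lower for H3K27ac in nEnd. By direction for SOX2, 159 of 1912 genes were lower in DP than in SOX2+. In SOX2+ minus naive 168 of 1912 were higher.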

How the data were processed

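Per the labels and the methods, the authors used cutadapt 1.18 for trimming, Bowtie2 2.3.4.1 for alignment to mm10, then Picard 2.9.1, SAMtools 1.9, bedtools 2.27.1 and deepTools 3.2.0, and called peaks per library with SEACR. The deposited lists give each peak's total and max signal as coverage on the library's own scale, so only ranks within a library were compared. They are named relaxed for histone marks and stringent for transcription factors, while the methods state the reverse, so read depth and stringency remain unknown. Max signal takes 26 to 249 distinct values per library, and ties were broken by total signal. Genes came from GENCODE M21, and sequences from GRCm38. Scores of all genes with a kept peak in at least 2 libraries of an antibody were fitted with limma 3.58.1 (trend, robust) in R 4.3.3, with Benjamini-Hochberg adjustment and a threshold of 0.05, after tests on simulated data. Single DP and unassigned histone libraries stayed out. In the SOX2 fit the experiments pair the SOX2+ and DP libraries: deviations of the pairs correlated at 0.119, 0.174 and 0.241. The members and lists were chosen with earlier results of these data known. Members outside these rules were named after their values were seen: SOX2 and GATA6 members with a kept peak in at least 2 libraries of a population, and histone members called by limma. Alternatives were all peaks, total signal, 5 kb flanks, log2 rank, no filter, the replicate block and leaving out each library, where a group left with 1 library was assumed to vary like the others.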

Additional observations from a re-analysis of the deposited data

Results flagged for a closer look

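The H3K27ac and H3K4me1 libraries of experiment B whose labels name different sorted populations held kept peaks at members that had none in any assigned library of the same mark. Neurod1 had an H3K27ac score of 25 there, from a peak on the SOX2 site at 12066 bp that also carried kept H3K4me1. That peak stood at percentile 47.2 of its list. Below the kept number, both 2iLIF libraries (percentiles 36.9 and 86.6) and both NACL libraries (23.9 and 88.9) also had H3K27ac on this site. Their lists are far longer, so fewer of their peaks are kept. Zic4, a zinc finger factor, had an H3K4me1 score of 37.5, and with all peaks it also had H3K4me1 in both SOX2+ libraries and in DP. Each value comes from 1 library.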

How the results depend on the processing

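Of 112 alternative counts, 71 stayed within 1.5 times the reported one, and of 146 alternative values of named members, 94 kept their direction and side of the threshold. A count could stay the same while the member changed. For GATA6, Pax7 was called in the reported fit, and Meis1 in its place with total signal or log2 rank. Fits that a named member did not enter are not among the 146. Members with SOX2 peaks in at least 2 libraries were, with all peaks, 5 in 2iLIF, 8 in NACL, 13 in SOX2+ and 3 in DP (16.1%, 25.8%, 41.9% and 9.68%, against 19.6%, 33.9%, 34.6% and 11.8% of similar genes), with total signal 2, 0, 0 and 0, with a peak in any library 2 in SOX2+ and 2 in DP, and at the second shortest list, chosen after seeing the data, 4, 3, 7 and 3. Leaving out a library gave 1 to 1 in 2iLIF, NACL and SOX2+ and 0 to 1 in DP. Of these counts only those with all peaks have a share of similar genes beside them, so the others were not compared with a background. At the second shortest list limma called 3 members for SOX2 in DP minus SOX2+ (Meis1 higher by 74.5, adjusted p = 0.00871, with 674 of 5214 genes higher) and 1 in SOX2+ minus naive. With all peaks, where lists differ in length by construction, it called 6 lower in DP and 2 higher in SOX2+ of 15 for SOX2 (28.7% and 2.64% of all genes), 14 and 16 of 29 lower for H3K27ac in nEnd and in SOX2+ minus naive (62.5% and 82.1%), 6 of 30 higher for H3K4me1 in SOX2+ minus naive (4.69%), and 3 higher and 1 lower of 11 for GATA6 (55.3% and 0.347%), which makes 4. There Meis1 reversed to -5.28 for H3K27ac (adjusted p = 0.487) and to 0.321 for GATA6 (adjusted p = 0.906). H3K4me1 calls in nEnd minus naive fell to 2 with 5 kb flanks and 2 with log2 rank, and ranged from 1 to 5 without a library. In SOX2+ minus naive they fell to 0 with no filter and 0 with log2 rank, and ranged from 0 to 1. GATA6 calls ranged from 0 to 2. The cause of other changes was not tested. The fits with no filter could not be fitted for SOX2 and GATA6.

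With the experiment as a replicate block, the 6 SOX2+ and DP libraries called 165 genes higher and 206 lower for SOX2, against 106 and 113 without it, and 0 members either way. With the clone as a replicate block, where the pairs correlated at 0.0293 to 0.138, Meis1 stayed called for H3K27ac (1 member), so the block changed no member's call in these 2 comparisons, and no blocked fit was made for H3K4me1 or GATA6. At the second shortest list the 5 SOX2+ and DP libraries called 2 members (Meis1 and Lmx1b) with the replicate block and 2 without it.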
